A study of Mus musculus with 2 samples.

Results

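The 10 genes described here mark hepatic stellate cells and the mesothelium of the liver, or are used as such markers: Pdgfra, Pdgfrb, Hgf, Wt1, Lhx2, Tcf21, Col1a1, Des, Vim and Alcam. They were listed by name and are 10 of 21938 protein-coding genes. Each gene was examined over its body plus 50 kb on either side. The data are DNase-seq libraries from the livers of B6NCrl mice at embryonic day 11.5, males and females together, with no treatment named. DNase-seq reads where the nuclease DNase I cuts, and cuts gather in open chromatin. The 2 libraries, technical replicates 7 and 1, share 1 biological sample. There is no second condition, so no test between groups was possible, and the spread between the libraries is technical. Whole liver was used: fewer cells of a type and less open chromatin per cell cannot be told apart.

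Stellate cells lie between the hepatocytes and the sinusoids, store vitamin A and make extracellular matrix. Mesothelial cells cover the surface of the liver, and in the embryo they and the mesenchyme below them give rise to stellate cells. Both are minor cell types of an organ that at this stage is filled with hepatoblasts and developing red cells. Stellate cells signal to hepatoblasts through HGF, and platelet-derived growth factors act on them through the receptors PDGFRA and PDGFRB.

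A peak is a narrow region that the authors listed for a library, and its density is the authors' highest value of DNase cutting in it. Technical replicate 7 had 86036 peaks and technical replicate 1 had 42422. The rank of a peak is its percentile by density among all peaks of its library, with the densest near the top of the scale. A promoter peak has its midpoint within 1 kb of an annotated start of the gene. A distal peak has its midpoint farther than 1 kb from the starts of every annotated gene. Peaks of both libraries that overlapped by at least 1 bp were joined into 34023 shared regions.

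The sequences below are open sites of 5 of the genes, shown because they hold the footprints described with each gene. They are reference sequence from RefSeq GRCm38.p6, 5′ to 3′ on the strand of the gene, without exon bases. Capitals mark the footprints of technical replicate 7, short stretches that were cut less than their surroundings. The first is the intronic part of the strongest promoter peak of Pdgfra, from an inner start, and the second its densest shared distal site in technical replicate 7. The third is the strongest promoter peak of Col1a1, in an intron, and the fourth its densest distal site. They are followed by both intergenic shared sites of Lhx2, the shared site near Des with the higher density, and a distal site of Tcf21 listed for technical replicate 7 alone.
Pdgfra promoter site, chr5:75156350-75156465, plus strand: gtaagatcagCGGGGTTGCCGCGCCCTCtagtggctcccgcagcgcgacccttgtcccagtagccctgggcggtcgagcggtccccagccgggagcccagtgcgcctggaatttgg
Pdgfra site at -8.89 kb, chr5:75143290-75143510, plus strand: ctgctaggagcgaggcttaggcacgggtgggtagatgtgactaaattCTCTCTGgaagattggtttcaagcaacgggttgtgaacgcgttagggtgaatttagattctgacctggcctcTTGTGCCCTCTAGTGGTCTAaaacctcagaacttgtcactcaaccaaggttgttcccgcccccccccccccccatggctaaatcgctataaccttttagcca
Col1a1 promoter site, chr11:94937055-94937313, plus strand: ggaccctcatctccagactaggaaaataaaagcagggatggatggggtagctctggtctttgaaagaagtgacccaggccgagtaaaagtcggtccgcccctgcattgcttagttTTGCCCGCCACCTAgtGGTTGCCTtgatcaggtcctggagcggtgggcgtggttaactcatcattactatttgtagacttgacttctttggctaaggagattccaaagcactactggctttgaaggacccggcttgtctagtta
Col1a1 site at 42.9 kb, chr11:94978994-94979244, plus strand: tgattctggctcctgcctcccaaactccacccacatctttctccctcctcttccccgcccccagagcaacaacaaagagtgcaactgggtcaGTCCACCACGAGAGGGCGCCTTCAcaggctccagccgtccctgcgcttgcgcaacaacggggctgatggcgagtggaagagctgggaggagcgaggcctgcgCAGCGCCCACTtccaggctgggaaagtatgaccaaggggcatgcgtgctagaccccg
Lhx2 site at 36.9 kb, chr2:38376015-38376258, plus strand: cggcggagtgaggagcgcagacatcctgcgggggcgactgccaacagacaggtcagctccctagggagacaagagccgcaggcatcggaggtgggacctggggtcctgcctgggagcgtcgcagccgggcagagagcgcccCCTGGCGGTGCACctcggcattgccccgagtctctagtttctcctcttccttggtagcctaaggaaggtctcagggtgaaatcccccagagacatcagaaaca
Lhx2 site at 78.9 kb, chr2:38418038-38418256, plus strand: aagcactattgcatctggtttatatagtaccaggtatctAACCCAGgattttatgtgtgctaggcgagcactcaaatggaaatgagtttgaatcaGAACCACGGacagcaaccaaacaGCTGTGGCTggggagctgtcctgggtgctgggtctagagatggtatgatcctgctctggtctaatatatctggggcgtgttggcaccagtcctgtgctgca
Des site at 38.6 kb, chr1:75398789-75399028, plus strand: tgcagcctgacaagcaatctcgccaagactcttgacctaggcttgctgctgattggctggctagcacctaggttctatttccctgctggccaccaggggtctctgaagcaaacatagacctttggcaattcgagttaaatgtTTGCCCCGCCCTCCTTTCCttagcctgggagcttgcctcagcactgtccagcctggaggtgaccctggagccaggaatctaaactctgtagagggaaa
Tcf21 site at 38.5 kb, chr10:22781539-22781764, minus strand: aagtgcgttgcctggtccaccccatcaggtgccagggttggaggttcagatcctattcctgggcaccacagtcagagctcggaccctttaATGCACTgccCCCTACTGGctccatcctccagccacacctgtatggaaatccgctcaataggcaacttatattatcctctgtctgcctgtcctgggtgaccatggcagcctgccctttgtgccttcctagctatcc

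The words under several of these footprints resemble the binding word of CTCF, the zinc finger protein that holds chromatin loops. For the Des site only the footprint found in both libraries is read here, although technical replicate 1 listed 3 in that site. The capitals of the Pdgfra site at -8.89 kb hold GCCCTCTAGTGG, under a footprint of technical replicate 7 only. The same letters stand in the Pdgfra promoter site as GCCCTCtagtgg, in part under a footprint in each library. The Col1a1 promoter site holds GCCACCTAgtGG under 2 adjoining footprints of technical replicate 7, and 1 footprint of technical replicate 1 spans it whole. The Col1a1 distal site holds CCACGAGAGGGC, and the Lhx2 site at 36.9 kb holds gcccCCTGGCGG; both words overlapped a footprint in both libraries. The Tcf21 site holds gccCCCTACTGG, in part under a footprint of technical replicate 7 only. The footprint in the Des site, present in both lists, lay on TTGCCCCGCCCTCC, which contains the SP/KLF box GGGCGG on the other strand.

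The shares of sites with such words were set beside those of the whole library. In all, 3 CTCF words were searched on both strands in 150 bp around the summits of the 70 distal peaks of technical replicate 7. The word chosen at the outset, CCCTC together with AGGNGGC, was found in 11 of 70 (15.7%), against 10.5% of 52995 distal peaks of the library. CCNNNAGGNGGC was found in 9 of 70 (12.9%), against 11.5%. The looser CCNNNAGNNGGC, which matches every site that the second word matches and was added after the sequences had been read, was found in 17 of 70 (24.3%), against 23.7%. In the 17 distal shared regions the same 3 words were found in 3 (17.6% against 16.4%), 4 (23.5% against 20.03%) and 8 (47.1% against 34.8%). Over their full length, 17 of the 70 distal peaks held the looser word. In 14 of these it overlapped a footprint by at least 1 bp, against 65.6% of 13612 in the library. Because this word was chosen after these same sequences had been read, its shares and this overlap give no support for bound sites. A match is a description of the letters and not a bound site.

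The other words were counted in the same way. The GATA word AGATAA, on both strands, was found in 2 of 70 distal peaks (2.86%), against 14.0% of all distal peaks. Of the shared distal regions 2 of 17 held it (11.8%), against 9.24%, and of the strongest promoter peaks 1 of 10, against 1.78%. The SP/KLF box GGGCGG was found in 11 of 70 distal peaks (15.7%), against 10.8%, and in 7 of 17 shared distal regions (41.2%), against 18.1%. In the strongest promoter peak it was found for 5 of 10 genes (50%), against 58.5%. Of the shared regions 6 of 17 held the CCAAT box (35.3%), against 15.6%, and 5 the E-box CAGCTG (29.4%), against 14.1%. In the 70 distal peaks these shares were 17.1% against 16.3% and 15.7% against 14.4%. The TEAD, LIM homeodomain, TATA and serum response words were in none of the 17, against at most 6.91%. In the 70 distal peaks the TEAD word was found in 3 (4.29% against 7.82%) and the TATA word in 3 (4.29% against 4.26%). The LIM homeodomain and serum response words were in none of the 70, against 1.90% and 0.713%. The WT1/EGR core GTGGGCG was found in 2 of the 10 promoter peaks, those of Col1a1 and Alcam, against 11.2% of 14261. It was found in 4 of 70 distal peaks (5.71% against 2.47%) and 2 of 17 shared distal regions (11.8% against 3.78%). The AP-1 word TGANTCA was found in 3 of 70 (4.29% against 6.11%) and 1 of 17 (5.88% against 4.27%). None of the 10 promoter peaks held it, against 1.91%. In all 13 words were counted in 3 sets of windows, 39 combinations, and no difference was tested.

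Open chromatin at a start was present for nearly all of the genes. In technical replicate 7 all 10 had a promoter peak, against 65.0% of protein-coding genes. In technical replicate 1 it was 9 of 10, against 59.6%, and 9 of 10 had a shared region at a start, against 59.0%. Tcf21 was the exception in both counts. A hotspot, a broader region of raised cutting, lay at a start of all 10 genes in both libraries, against 70.2% and 65.0% of genes. Footprints lay at a start of 8 genes in technical replicate 7, all but Pdgfrb and Tcf21, against 60.4%, and of all 10 in technical replicate 1, against 65.6%. The footprint lists came from different processing and their numbers cannot be compared from one library to the other.

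The CpG content of the promoters, which goes with open promoters across cell types, spanned a middle range. The ratio of observed to expected CpG in 1000 bp around the 5′ end was lowest at Hgf (0.268) and highest at Des (0.702), beside a median of 0.553 over all genes. For 7 genes it was below 0.6, and 6 of these had a shared region at a start, against 30.5% of 11857 genes below that value. The 3 genes above it, Wt1, Lhx2 and Des, all had one, against 92.5% of 10081. Of all 21938 genes 11857 were below it, so 7 of 10 is not far from the background. The threshold of 0.6 was set after the counts were known. CpG was measured at the 5′ end alone, whereas a peak at any start counted; the 10 genes had 2.3 starts on average and all genes 1.89, with a median of 2 in both.

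The strongest promoter peaks of most of the genes were less dense than the median strongest promoter peak of all genes. The median rank of the strongest promoter peak was 76.2 in technical replicate 7, against 91.0 over the 14261 genes with one, and 65.8 in technical replicate 1, against 82.7 over 13067 genes. In technical replicate 7, 9 of 10 genes lay below the median of all genes, and in technical replicate 1, 8 of 9. Alcam was above it in both. Pdgfra, Lhx2, Col1a1 and Vim lay between 85.5 and 90.7 in technical replicate 7, and Tcf21 and Des lowest, at 34.1 and 32.3. The rank was lower in technical replicate 1 for 8 of the 9 genes with a peak in both; the all-gene median was lower there too. Among all promoter peaks of a library, weaker ones at the same genes included, the median rank of the 10 genes was 60.4 in technical replicate 7, and that of the 9 with one was 53.5 in technical replicate 1.

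**Figure D1:**
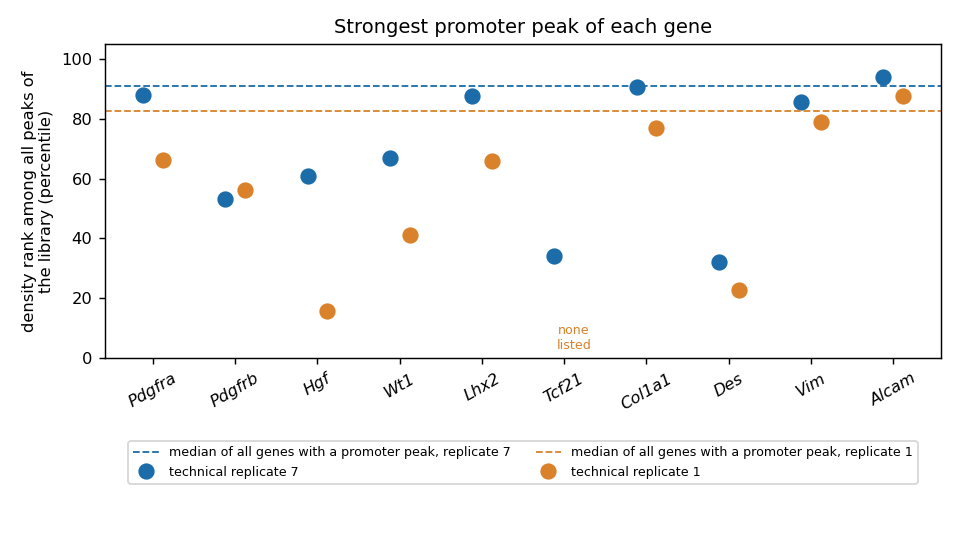
Density rank (percentile among all peaks of the library) of the strongest promoter peak of each gene, blue for technical replicate 7 and orange for technical replicate 1; dashed lines are the medians of all genes with a promoter peak. Alcam (93.8 and 87.7) is the single gene above both lines, and Tcf21 has no promoter peak listed for technical replicate 1.

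For a few genes the strongest distal peak was denser than the strongest promoter peak. In technical replicate 7 this held for Pdgfrb, Tcf21, Col1a1 and Des, 4 of the 9 genes with both kinds of peak, against 28.8% of 13688 genes. In technical replicate 1 it held for Pdgfrb, Col1a1 and Des, 3 of 8, against 22.4% of 9539 genes. Peaks at starts of other genes are left out of this comparison; in the Des window the peak at the start of Dnpep was denser than both, at 8.02 in technical replicate 7 and 5.85 in technical replicate 1. In the Col1a1 window the peak at the start of Ppp1r9b had 2.78 and 3.40, the latter above the densest distal peak of technical replicate 1.

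**Figure D2:**
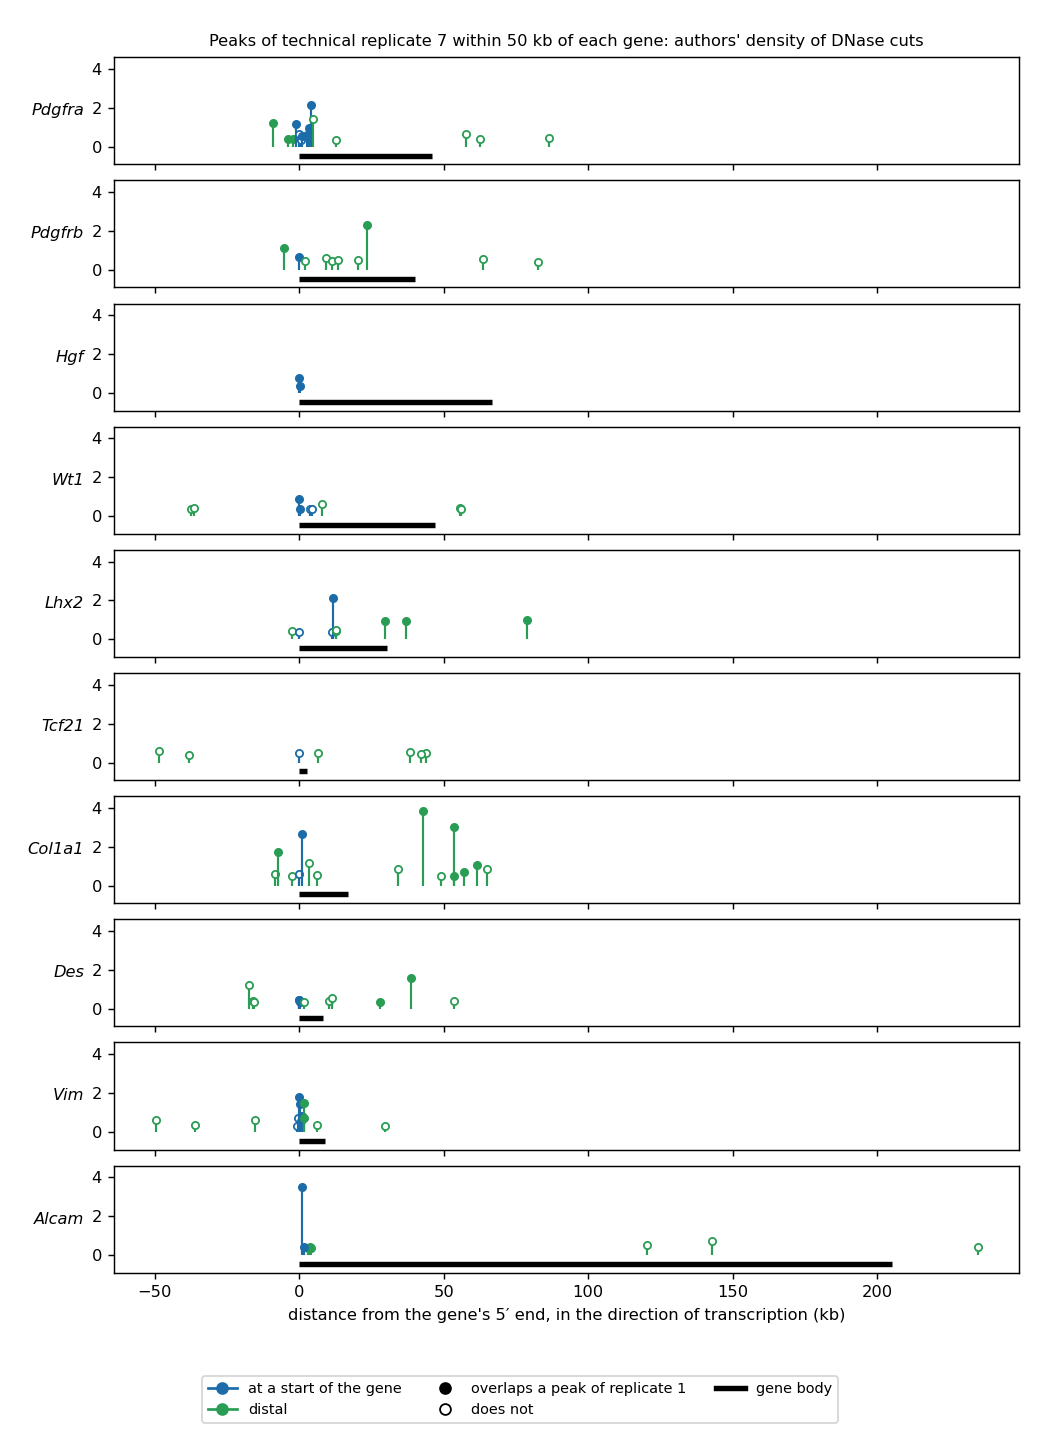
Promoter peaks (blue) and distal peaks (green) of technical replicate 7 around each gene, placed by distance from the 5′ end in kb along transcription, with the authors' density as height; filled circles overlap a peak of technical replicate 1, open ones do not, and the black bar is the gene body. Col1a1 has the densest distal peak (3.86) and Hgf has none.

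Distal peaks were spread unevenly over the genes. Technical replicate 7 listed 70, from 0 at Hgf to 13 at Col1a1, with a median of 7 per gene against 4 over all protein-coding genes. Per 100 kb of window the medians were 5.66 and 2.96. At least 1 such peak was listed for 9 of 10 genes, against 83.9%. Only 21 of the 70 overlapped a peak of technical replicate 1; the share, 30%, was near the 29.8% of all distal peaks of the library. Of the other 49, 17 overlapped a hotspot of technical replicate 1 and 32 neither. The median rank of the distal peaks was 35.9 in technical replicate 7, against 42.2 for all distal peaks of the library. In technical replicate 1 the order was the opposite: its 21 distal peaks had a median rank of 47.9, against 34.1. When technical replicate 7 was limited to as many peaks as technical replicate 1, 22 of the 70 were left. That is fewer per gene than the mean of 2.47 over all protein-coding genes.

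Counted as shared regions, the distal sites were nearer to the background by their mean than by their median. There were 17, at 7 of 10 genes, against 59.9% of genes with at least 1. The mean was 1.7 per gene against 1.65, and the median 1.5 against 1. Per 100 kb of window the medians were 1.17 and 0.781. Hgf, Wt1 and Tcf21 had none. Of the 70 distal peaks 24 lay in the body of the gene itself and 16 in that of another gene only. A footprint lay in 68.6% of the 70, against 62.1% of all distal peaks.

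**Figure D3:**
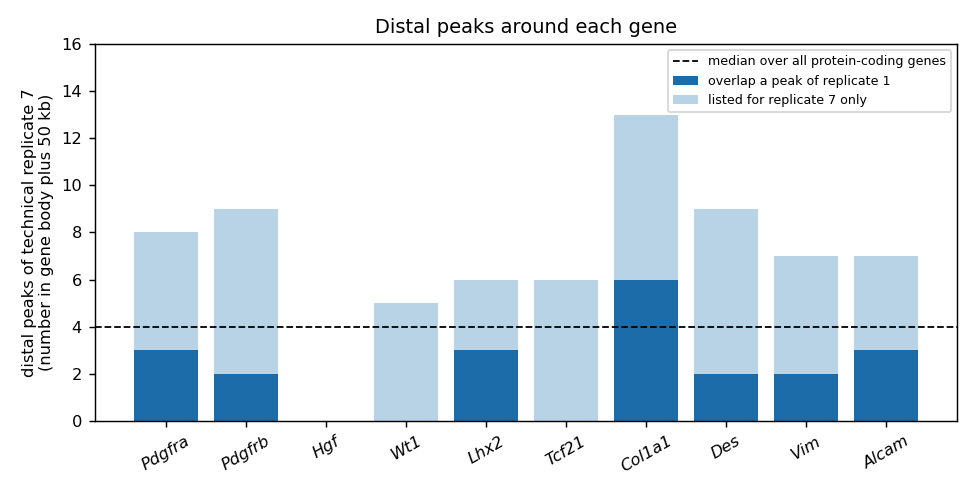
Number of distal peaks of technical replicate 7 in the gene body plus 50 kb, dark where a peak of technical replicate 1 overlaps; the dashed line is the median of all protein-coding genes, 4. The bar of Col1a1 reaches 13, Wt1 and Tcf21 have no dark part, and Hgf has no distal peak.

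Pdgfra (ENSMUSG00000029231.15, chromosome 5, 75152292 to 75198215, plus strand) encodes the receptor for platelet-derived growth factor found on most mesenchymal cells. Technical replicate 7 listed 7 promoter peaks and technical replicate 1 listed 9, which joined into 5 shared regions with midpoints from -972 to 4056 bp. The strongest was not at the 5′ end but at 4056 bp, 449 bp past an inner start at 75155899. Its density was 2.14 (rank 88.0) in technical replicate 7 and 1.70 (rank 66.1) in technical replicate 1. The peak over the 5′ end itself, at -65 bp, had a density of 0.653 in technical replicate 7 and was not among the peaks of technical replicate 1, although a hotspot covered it.

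Of the 8 distal peaks of Pdgfra in technical replicate 7, the densest (1.42, rank 80.7), in an intron at 4.95 kb, was listed for that library alone, with no hotspot in the other. The 3 shared distal regions all lay upstream. That at -8.89 kb, in an intron of Gm19583, had ranks of 76.5 and 37.1 in technical replicates 7 and 1. The region at -3.83 kb had ranks of 14.9 and 42.6, so it was the weaker of the pair in technical replicate 7 and the stronger in technical replicate 1. The region at -2.21 kb had ranks of 21.4 and 3.17. The peak at 57.8 kb, between genes, had a density of 0.645 and was again in technical replicate 7 alone.

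Pdgfrb (ENSMUSG00000024620.11, chromosome 18, 61045150 to 61085061, plus strand) encodes the second receptor of the family, a marker of pericytes and stellate cells. Its promoter peak was moderate, with a density of 0.665 (rank 53.3) in technical replicate 7 and 1.39 (rank 56.2) in technical replicate 1. It was the single gene whose rank was not lower in technical replicate 1. No footprint of technical replicate 7 lay at its starts, and 1 of technical replicate 1 did. With the longer footprint list of technical replicate 7, all 10 genes had a footprint at a start.

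Both shared distal regions of Pdgfrb ranked above its promoter. That at 23.4 kb, in an intron of the gene, had a density of 2.32 (rank 89.0) in technical replicate 7 and 1.53 (rank 61.0) in technical replicate 1. That at -5.14 kb had 1.13 (rank 74.5) and 1.74 (rank 67.1). The other 7 distal peaks overlapped no peak of technical replicate 1, though 3 of them overlapped a hotspot of it. They had densities from 0.389 to 0.613; the densest was at 9.44 kb in an intron. Of them 2 lay in introns of Csf1r, the macrophage receptor gene downstream.

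Hgf (ENSMUSG00000028864.7, chromosome 5, 16553495 to 16620152, plus strand) encodes hepatocyte growth factor, the ligand of the receptor MET on hepatoblasts. Both libraries had 2 peaks at its 5′ end, joined into 1 shared region. The strongest had a density of 0.777 (rank 60.8) in technical replicate 7 and 0.798 (rank 15.7) in technical replicate 1, the widest gap in rank between the libraries among the genes. Neither list used here had a distal peak in its window of 167 kb, whereas the longer list of technical replicate 7 left none of the 10 genes without one.

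Wt1 (ENSMUSG00000016458.14, chromosome 2, 105126529 to 105173616, plus strand) encodes a zinc finger transcription factor of the mesothelium. Its 5′ end had a peak with a density of 0.905 (rank 67.0) in technical replicate 7 and 1.11 (rank 41.3) in technical replicate 1, which overlaps an exon of the antisense gene Wt1os. A second shared region lay 302 bp into the gene, with a density of 0.389 in technical replicate 7. A further 2 peaks of technical replicate 7, at 3913 and 4438 bp near inner starts, overlapped no peak of technical replicate 1. Both overlapped a hotspot of it, with a −log10 FDR of 2.26 and 1.96. None of its 5 distal peaks was shared. The densest lay in an intron at 7.89 kb (density 0.633, rank 50.7), over a hotspot of technical replicate 1 with a −log10 FDR of 2.43. The next, at -36.4 kb in an intron of Wt1os and at 55.8 kb between genes, both had a density of 0.421. Technical replicate 1 listed 1 distal peak of its own, at 1.32 kb, with a density of 0.879.

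Lhx2 (ENSMUSG00000000247.11, chromosome 2, 38339281 to 38369733, plus strand) encodes a LIM homeodomain factor that holds stellate cells in their quiescent state. Its open promoter was the inner one. The peak beside the inner start at 38350759, 11767 bp from the 5′ end, had a density of 2.10 (rank 87.7) in technical replicate 7 and 1.69 (rank 65.8) in technical replicate 1. The 5′ end had a peak of 0.369 (rank 12.5) in technical replicate 7 and neither peak nor hotspot in technical replicate 1.

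The 3 shared distal regions of Lhx2 lay in its last exon at 29.7 kb and past its end at 36.9 and 78.9 kb. Their densities in technical replicate 7 were 0.945, 0.961 and 1.01, and in technical replicate 1 they were 1.22, 1.32 and 1.28. All 3 were thus alike, with ranks from 68.6 to 70.7 in technical replicate 7 and from 47.9 to 53.2 in technical replicate 1. The other 3 distal peaks overlapped no peak of technical replicate 1, though 2 of them overlapped a hotspot of it. Their densities were at most 0.465. The site at 78.9 kb had 3 footprints in technical replicate 7, on AACCCAG, GAACCACGG and GCTGTGGCT, and all of these overlapped one of technical replicate 1.

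Tcf21 (ENSMUSG00000045680.8, chromosome 10, 22817281 to 22820174, minus strand) encodes a basic helix-loop-helix factor of embryonic mesenchyme. Its promoter peak, in technical replicate 7 alone, had a density of 0.485 (rank 34.1). A hotspot of technical replicate 1 lay at a start with a −log10 FDR of 1.69. Each of the 3 earlier peak lists of that library had a peak within 1 kb of a start. In the shortest of these lists no peak overlapped the promoter peak of technical replicate 7. The 6 distal peaks of technical replicate 7 overlapped neither a peak nor a hotspot of technical replicate 1 in the lists used here. The densest of the 6 were at -48.6 kb (0.613), 38.5 kb (0.521) and 6.42 kb (0.489), all between genes. That at 6.42 kb overlapped a peak of the shortest earlier list.

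Col1a1 (ENSMUSG00000001506.10, chromosome 11, 94936224 to 94953042, plus strand) encodes the alpha 1 chain of type I collagen, the main fibrous matrix protein of stellate cells. Its single annotated start carried a weak peak, 0.625 (rank 50.1) at 43 bp, in technical replicate 7 alone. The strong promoter peak lay in an intron at 960 bp, with a density of 2.68 (rank 90.7) in technical replicate 7 and 2.24 (rank 76.9) in technical replicate 1. With 500 bp around a start in place of 1 kb, Col1a1 had no shared promoter region.

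Around Col1a1 lay 13 distal peaks of technical replicate 7 and 5 shared regions, more than at any of the other genes. The densest, 3.86 (rank 95.0) in technical replicate 7 and 3.01 (rank 86.1) in technical replicate 1, lay between genes at 42.9 kb. The next, at 53.7 kb, had densities of 2.996 and 2.29. The site at -7.21 kb had 1.71 and 2.01. The 2 remaining shared regions, at 56.9 and 61.6 kb, lay in introns of the neighbour Ppp1r9b, with densities of 0.713 and 1.07 in technical replicate 7. Thus 4 of the 5 lay past the end of Col1a1.

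Des (ENSMUSG00000026208.9, chromosome 1, 75360329 to 75368579, plus strand) encodes desmin, an intermediate filament protein of muscle and of rodent stellate cells. Its promoter had the lowest rank of the 10 in technical replicate 7, while its 5′ end had the highest CpG ratio. In technical replicate 1 that of Hgf was lower still. The lowest place in technical replicate 7 depends on the measure: by density at the summit Tcf21 (28.8) lay below Des (32.2), and by smoothed peak height Des had 59.9 and Tcf21 28.4. The strongest of 3 peaks had a density of 0.473 (rank 32.3) in technical replicate 7, and the 1 peak of technical replicate 1 had 0.879 (rank 22.8). The site at 38.6 kb, in an intron of Speg, a gene of striated muscle, had densities of 1.60 and 1.00. The widest footprint of technical replicate 1 in this site, 25 bp long, overlapped none of technical replicate 7. It held no match of the words searched. A weaker shared site in an exon of Speg, at 27.9 kb, had 0.336 and 0.768. Of the peaks in technical replicate 7 alone, that at -17.3 kb had a density of 1.21 (rank 76.4) and that at 11.3 kb had 0.549. Each lay over a hotspot of technical replicate 1, with a −log10 FDR of 2.52 and 1.81.

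Vim (ENSMUSG00000026728.9, chromosome 2, 13573927 to 13582826, plus strand) encodes vimentin, the intermediate filament protein of mesenchymal cells in general. Its start was covered by a hotspot of 2884 bp in technical replicate 7 and 2681 bp in technical replicate 1, the widest of the 10 genes in both. Under them lay 6 promoter peaks in each library, in 4 shared regions. The strongest had a density of 1.81 (rank 85.5) in technical replicate 7 and 2.37 (rank 78.8) in technical replicate 1. The 1 shared distal region lay in an intron at 1.74 kb, inside the same hotspot, with densities of 1.51 and 1.28. It also took in an adjoining peak of technical replicate 7 at 1.57 kb, with a density of 0.709. The distal peaks of technical replicate 7 outside it had densities of at most 0.621, the densest at -15.1 kb.

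Alcam (ENSMUSG00000022636.13, chromosome 16, 52248996 to 52454074, minus strand) encodes a cell adhesion molecule of fetal liver mesothelium that is also made by other cells. Its promoter peak was the densest of the 10, 3.51 (rank 93.8) in technical replicate 7 and 3.16 (rank 87.7) in technical replicate 1. It lay 878 bp inside the gene, over an exon, with 4 footprints of technical replicate 7 at the starts. The 1 shared distal region, in an intron at 3.64 kb, was weak, with densities of 0.421 and 0.869. Within its body of 205 kb, technical replicate 7 alone had intronic peaks at 143 kb (0.745) and 120 kb (0.533), and another past its end at 235 kb (0.429). That at 143 kb lay over a hotspot of technical replicate 1 with a −log10 FDR of 1.75, and its 2 footprints overlapped footprints of that library. Those at 120 kb and 235 kb lay over no hotspot of it.

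The ligands, processing enzymes and partners of these receptors had listed promoter peaks almost without exception, though of very different ranks. Of 13 such genes 12 had a shared region at a start, beside 59.0% of all genes. All 13 had a promoter peak in technical replicate 7, beside 65.0%. Pdgfb, the ligand of PDGFRB, had one in technical replicate 7 alone (rank 40.3). The highest mean ranks over both libraries were those of the adaptors Grb2 (98.4), Shc1 (94.0) and Gab1 (87.8), which act downstream of many receptors. Met, the receptor of HGF, had ranks of 56.0 and 49.6. The ligand genes Pdgfa, Pdgfc and Pdgfd had ranks of 75.4, 56.0 and 78.5 in technical replicate 7. Some of the promoter peaks were weak. Spint1, St14 and Hgfac had ranks of 8.08, 26.8 and 42.2 in technical replicate 7, and 18.4, 14.7 and 15.7 in technical replicate 1. Met and the ligand genes are named for their roles, and Spint1, St14 and Hgfac for their low ranks, all after their values were seen.

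Other genes of the same cell types are given by their counts, with no test of a difference from the 10 genes. Of 16 stellate cell and matrix genes 7 had a shared region at a start, beside 59.0% of all genes, while 12 had a promoter peak in technical replicate 7, beside 65.0%. The highest mean ranks were those of Col5a1 (77.0), a fibrillar collagen, Nes (72.8), the intermediate filament protein nestin, and Foxf1 (68.3), a mesenchymal forkhead factor. Neither library had a promoter peak for Lrat, Gfap, Acta2 or Lum. These 4 are named after their values were seen. Of 16 mesothelial and submesothelial genes 5 had a shared region and 10 a promoter peak in technical replicate 7. The highest mean ranks were those of Podxl (85.4), a sialomucin, Gata4 (72.4) and Aldh1a2 (60.4), which makes retinoic acid. No promoter peak was listed in either library for 6, Msln, Upk3b, Gpm6a, Lrrn4, Muc16 and Tbx5, also named after their values were seen. Msln, Upk3b and Muc16 code for surface proteins of mature mesothelium.

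The lists of other cells in this liver were read in the same way. Of 15 endothelial genes 6 had a shared region at a start, of 15 hepatoblast genes 9 and of 15 erythroid genes 11, beside 59.0% of all genes. The highest mean ranks among hepatoblast genes were those of Foxa3, Cebpa and Prox1, at 94.5, 87.9 and 77.8, while no promoter peak was listed for Alb, the albumin gene. The erythroid genes Tfrc, Zfpm1 and Epor had 99.5, 99.3 and 92.1, and Hbb-y and Alas2 lacked a promoter peak in both libraries. Egfl7, Kdr and Flt1 led the endothelial list, at 79.5, 71.1 and 42.1. What part any of these cell types has in the peaks around the 10 genes was not tested.

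**Figure D4:**
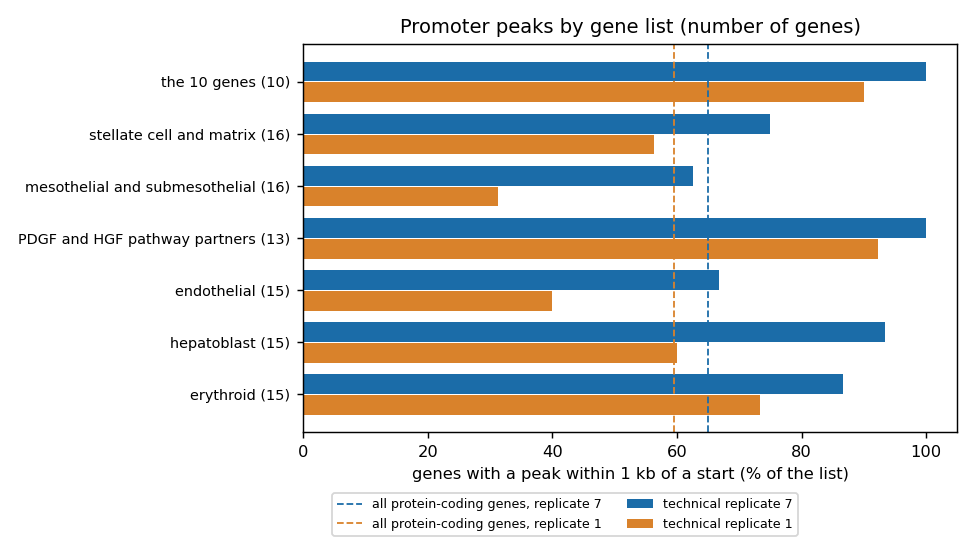
Share of each gene list, in percent, with a peak within 1 kb of a start, blue for technical replicate 7 and orange for technical replicate 1; dashed lines are the shares of all protein-coding genes, 65.0% and 59.6%. All 10 genes have a promoter peak in technical replicate 7, while 5 of the 16 mesothelial genes have one in technical replicate 1.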

How the data were processed

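DNase-seq was done on 1 biological sample in 2 libraries. Per the labels, coordinates are on mm10; all listed peaks lay within the chromosome lengths of GRCm38. For the aligner and both callers, names and versions were not given in the sources used here. Deposited by the authors, for each library called alone, were peaks with a signal (density of DNase cuts) and hotspots with a −log10 FDR per the file headers. The deposited footprints of technical replicate 1 hold a constant 0.01, taken to be the p-value or FDR limit. Deposited hotspots of an earlier processing of that library carry a score. The shorter of 2 peak lists was used for each library.

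Genes and starts came from GENCODE vM21 basic, without mitochondrial genes. Densities were whole multiples of a step of 0.00401 in technical replicate 7 and 0.0101 in technical replicate 1, within 0.02 steps for 100% of values under 2. The headers state no scale and the depth is unknown, so densities were compared only within a library, by rank. The densest peak of technical replicate 7 in a shared region gave its midpoint. Counts over the 10 genes were set beside the same counts over all protein-coding genes. The genes, gene lists and measures were chosen with earlier results of these data known. Placing peaks by midpoint, the CpG threshold and 2 of the 3 CTCF words were chosen after values of these genes had been seen.

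Named were all 10 genes, with their promoter peaks, their 3 densest distal peaks in technical replicate 7 and their shared distal regions. From each other list, the 3 genes with the highest mean rank were named, and those without a promoter peak where at most 3 lacked one; genes named outside this rule are said to be so. Tools were Python 3.11.15, numpy 2.4.6, pysam 0.24.0 and samtools 1.23.1; overlap and word searches were tested on simulated intervals and sequence. Alternatives were the longer and earlier lists, other windows, stricter overlap, single libraries, equal list lengths and other height columns.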

Additional observations from a re-analysis of the deposited data

How the results depend on the processing

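The number of genes with a shared region at a start (9) lay between 7 and 10 under all alternatives run: 7 with an overlap of at least 50% of both peaks, and 10 and 9 in technical replicates 7 and 1 alone. The 17 distal shared regions became 28 with the longer peak lists and 9 with a promoter window of 2500 bp. They became 11 and 37 with 20 kb and 100 kb beside the gene, and 10 with 50% overlap. Per gene, the mean over all protein-coding genes moved from 1.65 to 2.23, 1.26, 0.917, 2.81 and 1.45, in the same order. With technical replicate 7 limited to as many peaks as technical replicate 1 the count was 13, and the mean 1.43. With 2500 bp, 50% overlap and the limited list the 10 genes had fewer per gene than all genes, and otherwise more. The 17 regions became 10 where the nearest protein-coding start had to be that of the gene, a rule added after seeing the data. With 1 library left out the count ranged from 21 to 70. The 70 distal peaks of technical replicate 7 became 46 and 124 with 20 kb and 100 kb, and 46 by nearest start. They became 22 when that library was limited to as many peaks as technical replicate 1. The mean over all protein-coding genes was 5.15 per gene in the main setting, below that of the 10 genes. With the limited list it was 2.47, above that of the 10 genes. Among promoter peaks only, the median ranks were 60.4 (technical replicate 7) and 53.5 (technical replicate 1). For ranks, the spread was taken as the SD of the 2 libraries' values. For Tcf21, with a promoter peak in 1 library only, the median SD of the other genes was used instead. By these measures 22 of 76 alternative ranks of single genes moved beyond the spread. Counts of distal sites thus depend on window and list length, and absence from a list may reflect the depth, which is unknown. No paired analysis was possible because there is 1 group and no test.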
